A study of Danio rerio with 9 samples.

Results

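Heads of zebrafish that had been sterilized as embryos were compared with heads of conventionally raised (CV) zebrafish at 2 days post-fertilization (dpf), with the 2 sterilized groups combined. Gene expression was measured by RNA-seq in 9 samples, which are all samples of the series: 3 germ-free (GF) samples, 3 samples of germ-free fish given zebrafish gut metabolites (ZM) and 3 CV samples. The members were the 6 GF and ZM samples against the 3 CV samples, for the 15904 of 32520 genes whose FPKM averaged 1 or more over all samples. FPKM is a gene's number of sequenced fragments scaled by its transcript length and by the fragments mapped in the sample. The question was which genes differed from CV in the same direction with and without metabolites.

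All fish were of the Tubingen strain at the long-pec stage, and each sample was RNA from a pool of 5 heads. GF embryos were kept in gentamicin and washed in hypochlorite at early gastrulation, under laminar flow. ZM embryos were treated in the same way and also received a sterile-filtered extract of the intestines of adult zebrafish, so they had gut metabolites but no live microbes. CV embryos received none of these. All 6 sterilized samples therefore share the antibiotic, the hypochlorite wash and the absence of microbes, and these cannot be told apart in a comparison with CV. The study calls the 3 samples of a group biological replicates, and the p-values measure the spread between these pools.

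Embryos of zebrafish develop outside the mother and meet microbes from their water, which colonize the gut after hatching. At the stage sampled the head holds a brain in which neurons are being born and are growing axons, a differentiating retina and lens, and early jaw cartilage. Products of microbes are known to reach host tissues and to act through receptors such as the aryl hydrocarbon receptor, a sensor that switches on the detoxifying enzyme gene Cyp1a1.

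The sum of FPKM was between 666444 and 705494 in the 6 sterilized samples, against 587431 to 657383 in the CV samples (exact permutation test, two-sided p = 0.0238, the smallest p that 6 samples against 3 allow). The number of genes with an FPKM of at least 1 averaged 15289 ± 317.1 in sterilized samples and 16175 ± 688.3 in CV samples (SD, n = 6 and 3, exact permutation test, p = 0.0476). The CV samples stood apart from each other. CV replicate 2 lay closer to GF replicates 1 and 2, at a root mean square log2 distance of 0.317 and 0.337, than to CV replicates 1 and 3, at 0.518 and 0.612. No label marks it as different, and the counts over all genes and most counts of list members are given with and without it. FPKM does not tell the number of reads behind each value.

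Genes below CV in both sterilized groups were more numerous than genes above it. By limma on log2(FPKM + 1), with all 9 samples in a single model, 0 of the 15904 genes (0%) were lower and 0 (0%) were higher in sterilized samples than in CV samples at an adjusted p under 0.05. The smallest adjusted p was 0.0507, and 987 genes shared it, 952 with a lower mean in sterilized samples and 35 with a higher mean. Genes with an unadjusted limma p under 0.05 are called nominally lower or higher from here on, and they numbered 3216 lower (20.2%) and 1075 higher (6.76%). A looser threshold, an adjusted p under 0.1, was picked with the values in view and took in 2353 lower genes (14.8%) and 320 higher ones (2.01%). The 6 sterilized samples lay below every CV sample in 1368 genes (8.6%) and above every CV sample in 536 (3.37%). The scaling between samples moved this split. The nominally lower genes were 74.9% of all nominal calls as deposited, 58.4% with samples scaled by median of ratios, 94.8% with the FPKM sum made equal and 52.2% with quantile normalization. The median log2 difference over all genes, -0.0045 as deposited, was 0.06, -0.11 and 0.11 under these scalings. Among genes averaging 5 FPKM or more the lower share was 58.1%.

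The calls turned on CV replicate 2. Without it, 2460 genes (15.5%) fell and 641 genes (4.03%) rose in sterilized samples at an adjusted p under 0.05 from limma. Without CV replicate 1, and likewise without CV replicate 3, 0 genes passed that threshold. Without CV replicate 3, 2060 (13%) were nominally lower and 294 (1.85%) nominally higher. Values given below as "without CV replicate 2" are adjusted p-values of the same model on the other 8 samples, which takes the 2 remaining CV samples to vary like the other groups. CV replicate 2 was singled out from these same data, as the CV sample nearest to the sterilized ones. Leaving it out thus tends to widen the differences and lower the p-values. Those p-values are a description and not added support for a difference. Counts of list members from that fit stand beside 15.5% of all genes lower and 4.03% higher.

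The planned count of genes differing from CV with and without metabolites also required an adjusted p under 0.05 for both groups together. By it, 0 genes were lower and 0 higher. Without that condition, 2268 genes met the rule at an unadjusted p under 0.05 in each of GF and ZM. Of these, 2042 (12.8%) were lower in both groups and 226 (1.42%) were higher in both. Only 2 genes were at that threshold in both groups with opposite signs. The GF and ZM differences share the 3 CV samples and are therefore not independent. In the 2042 genes, the median log2 difference was -0.91 in GF and -0.76 in ZM, and in the 226 genes it was 0.40 in GF and 0.43 in ZM. The median FPKM over the 2042 genes was 2.77, 2.38 and 2.22 in the GF samples and 2.74, 3.24 and 2.92 in the ZM samples, against 6.14, 3.85 and 8.77 in the CV samples. CV replicate 2 was thus the CV sample nearest to the sterilized samples, and CV replicate 3 the farthest. CV replicate 2 was the lowest of the CV samples in 90.3% of the 2042 genes, against 26.1% of all genes tested, and CV replicate 3 was the highest in 87.5%, against 39.9%. The median over the 226 genes was 30.3, 31.9 and 32.7 FPKM in GF samples and 33.3, 34.4 and 33.0 FPKM in ZM samples, against 24.0, 26.4 and 22 FPKM in CV samples, again with CV replicate 2 nearest. Without CV replicate 3, 819 genes were nominally lower in both groups and 64 higher in both.

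The size of the difference was asymmetric as well. Of the 2042 genes lower in both, 603 had a log2 difference of -1 or lower, the middle 90% lying between -1.33 and -0.50. Of the 226, only 4 reached 1 or higher, and the middle 90% lay between 0.32 and 0.74. In bulk RNA, fewer cells of a type and less RNA per cell cannot be told apart, and this holds for each gene group below.

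The direction of the difference went with the level of the gene. Among the 7014 genes averaging 1 to 5 FPKM, 17.1% were lower in both sterilized groups and 0.2% were higher in both. Among the 736 genes averaging 100 FPKM or more, 3.26% were lower in both and 8.56% were higher in both. The median log2 difference was -0.12 in the first class and 0.23 in the last, with 0.04 and 0.15 in the classes from 5 to 20 and from 20 to 100. In rising order of level, nominally lower genes made up 26.4%, 18.9%, 10.8% and 5.57% of the 4 classes. Nominally higher genes made up 0.984%, 6.12%, 16.5% and 31.8%. List shares set beside those of all genes do not account for level. The median mean level was 3.91 FPKM for genes lower in both groups and 29.8 FPKM for genes higher in both, against 6.19 FPKM for all genes tested. A difference on the log2(FPKM + 1) scale understates the change of low genes. Transcript length and read depth were not analysed here, so their part in this pattern was not tested.

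**Figure D1:**
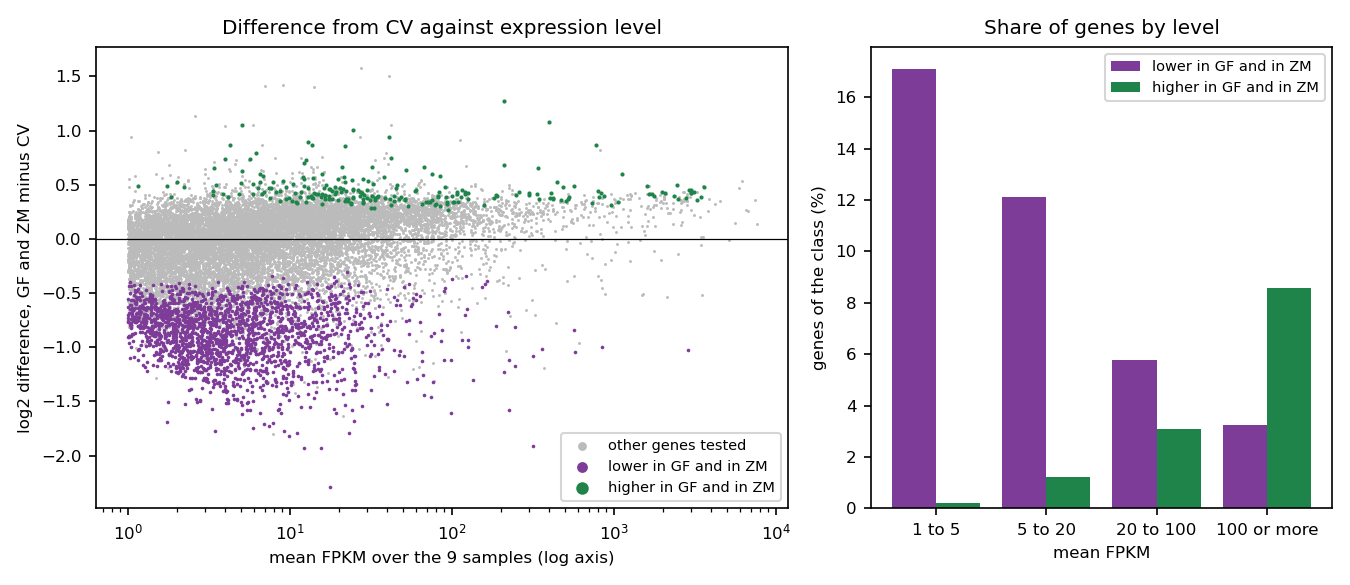
Left, log2(FPKM + 1) difference of GF and ZM minus CV against mean FPKM over the 9 samples (log axis), 1 point per gene tested, with the 2042 genes lower in both sterilized groups in purple and the 226 higher in both in green. Right, share of genes of each level class that were lower or higher in both: 17.1% and 0.2% at 1 to 5 FPKM, against 3.26% and 8.56% at 100 FPKM or more.

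Of the genes whose 6 sterilized samples all lay below CV, those with the smallest p included regulators of neurons, of FGF signaling and of RNA processing, and lens proteins. Each of these leading lower genes had an adjusted p of 0.0507 from limma. OTP (ENSDARG00000014201), a homeobox factor of hypothalamic neurons, had 8.57, 5.07 and 4.53 FPKM in GF samples and 6.04, 6.28 and 7.13 FPKM in ZM samples, against 49.2, 13.3 and 58.8 FPKM in CV samples. The groups did not overlap, although CV replicate 2 was far below the other CV samples. Its log2 difference of -2.29 (SE 0.39) was the only one of -2 or lower among the 2042 genes, and it was -2.94 (adjusted p = 0.00101) without CV replicate 2. The other gene named OTP (ENSDARG00000058379) was expressed at 57.0 to 92.9 FPKM in sterilized samples and 65.9 to 73.3 FPKM in CV samples, with a log2 difference of -0.02 (SE 0.12).

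PAFAH1B1, the dynein regulator LIS1 that neurons need to migrate, had 8.28, 7.62 and 7.31 FPKM in GF samples and 9.9, 10.2 and 9.6 FPKM in ZM samples, against 21.5, 14.8 and 27.8 FPKM in CV samples. The spread within each sterilized group was small beside the gap to CV, and the log2 difference was -1.15 (SE 0.17; without CV replicate 2, adjusted p = 0.00102). FGFR2, a receptor for fibroblast growth factors, had 8.82, 8.02 and 8.76 FPKM in GF samples and 11.6, 11.6 and 10.4 FPKM in ZM samples, against 25.3, 16.2 and 32.7 FPKM in CV samples (log2 difference -1.2, SE 0.19). ETV4, an ETS factor that FGF signaling induces, had 7.28, 7.5 and 6.88 FPKM in GF samples and 7.12, 8.13 and 9.1 FPKM in ZM samples, against 20.2, 12.5 and 23.4 FPKM in CV samples (log2 difference -1.15, SE 0.18). In both genes all sterilized samples were below all CV samples, and without CV replicate 2 their adjusted p was 0.00101 for FGFR2 and 0.00102 for ETV4.

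Genes of RNA processing and of kinase and lipid signaling stood beside them. SYMPK, the scaffold symplekin of the machinery that forms mRNA 3' ends, had 2.16, 2.71 and 1.94 FPKM in GF samples and 3.56, 3.49 and 3.61 FPKM in ZM samples, against 11, 5.51 and 15.8 FPKM in CV samples (log2 difference -1.51, SE 0.25). SCAF4 (ENSDARG00000077093), whose product binds the tail of RNA polymerase II, had 0.982, 0.859 and 1.22 FPKM in GF samples and 1.34, 1.48 and 1.82 FPKM in ZM samples, against 6.04, 3.46 and 13.9 FPKM in CV samples (log2 difference -1.78, SE 0.31). Both genes were without overlap, and CV replicate 2 was again the lowest CV sample. TLK1 (ENSDARG00000042467), a kinase of chromatin assembly, SBF1, a catalytically inactive relative of the myotubularin lipid phosphatases, and PDE7A, a phosphodiesterase that breaks down cAMP, had log2 differences of -1.0 (SE 0.17), -1.19 (SE 0.21) and -0.96 (SE 0.17). The noncoding RNA linc-epb41l4a had the same direction, at -0.75 (SE 0.13).

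**Figure D2:**
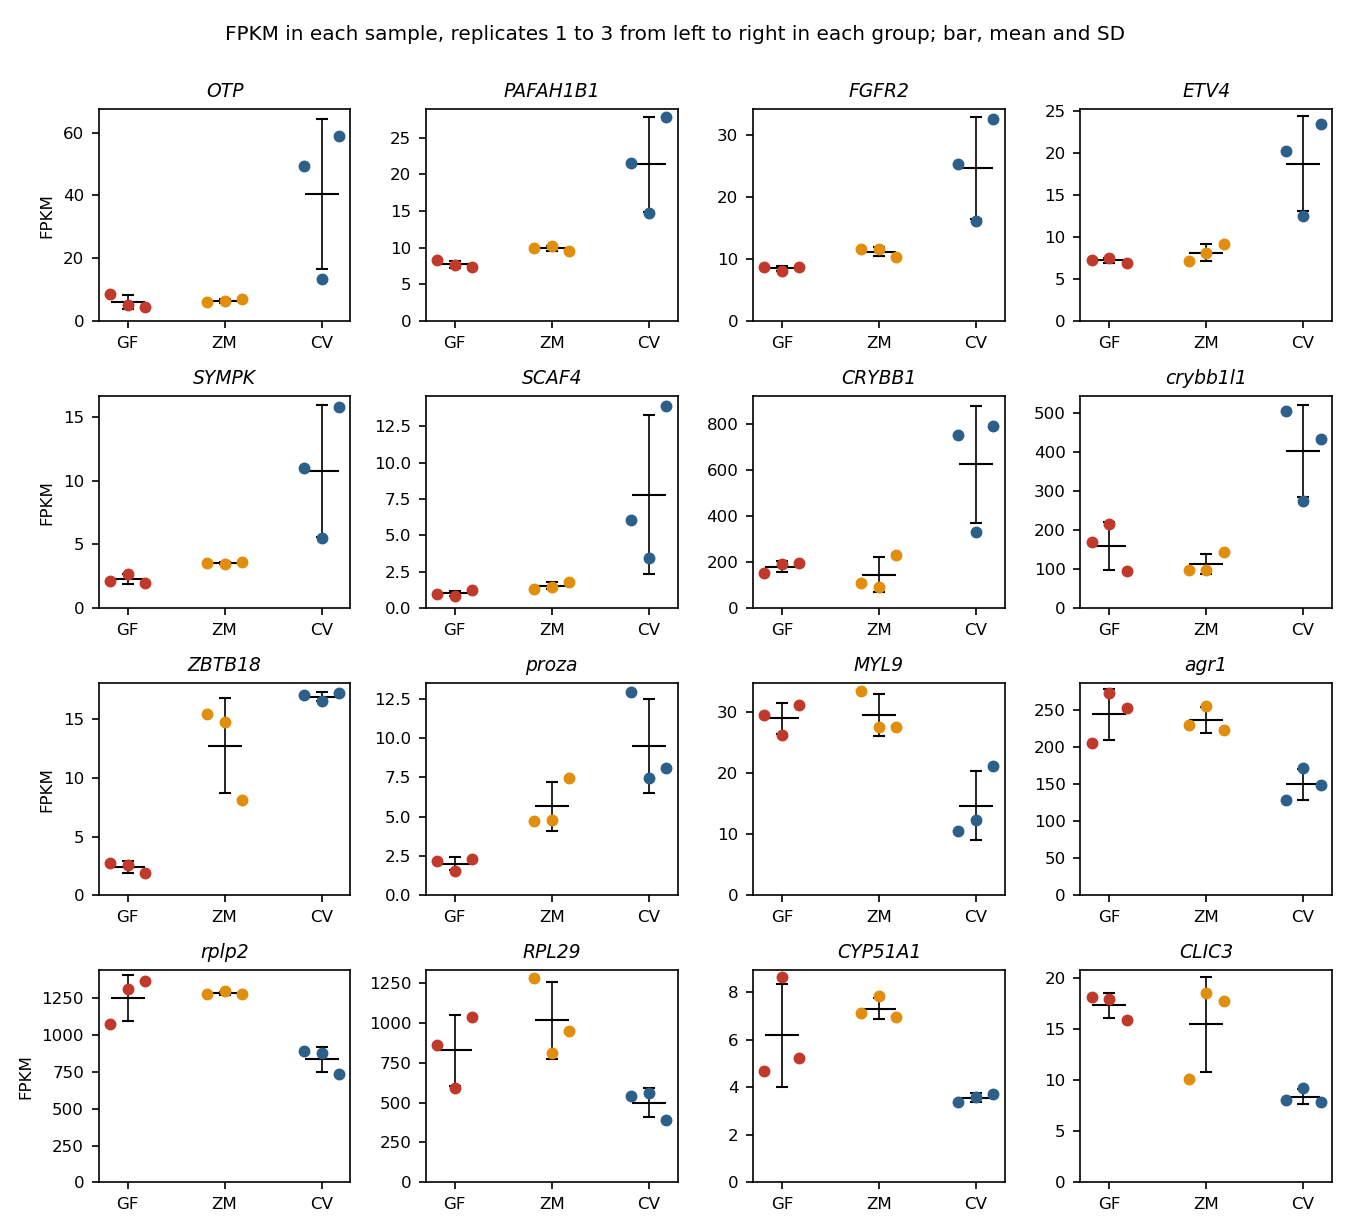
FPKM of 16 genes in each GF, ZM and CV sample (points, replicates 1 to 3 from left to right), with the group mean and SD as bars. In OTP, PAFAH1B1, FGFR2, ETV4, SYMPK, SCAF4, CRYBB1 and crybb1l1 all 6 sterilized samples were below the lowest CV sample, which was CV replicate 2 each time. ZBTB18 and proza had lower values in GF than in ZM, as did PAFAH1B1, FGFR2, SYMPK and SCAF4. MYL9, agr1, rplp2, RPL29, CYP51A1 and CLIC3 had all sterilized samples above CV.

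Genes of the eye were among the largest differences, but not for the lens as a whole. CRYBB1, a beta crystallin of lens fibers, had 152.1, 192.0 and 195.4 FPKM in GF samples and 110.3, 94.0 and 233.6 FPKM in ZM samples, against 755.7, 333.9 and 792.9 FPKM in CV samples, a log2 difference of -1.91 (SE 0.33; without CV replicate 2, adjusted p = 0.00176). Its relative crybb1l1 had 169.2, 214.6 and 94.2 FPKM in GF samples and 97.9, 99.1 and 143.9 FPKM in ZM samples, against 504.3, 273.7 and 432.2 FPKM in CV samples (log2 difference -1.58, SE 0.27). Neither gene overlapped between sterilized and CV samples. MIP (ENSDARG00000013963), the lens water channel aquaporin 0, had 30.0, 35.6 and 30.0 FPKM in GF samples and 31.0, 23.8 and 34.6 FPKM in ZM samples, against 62.9, 46.6 and 69.1 FPKM in CV samples (log2 difference -0.92, SE 0.16). The second MIP gene (ENSDARG00000037285) differed by 0.17 (SE 0.14). The beta crystallin cryba1b, at -1.17 (SE 0.29), was nominally lower as well. Over all 40 lens crystallin genes tested, however, 4 (10%) were nominally lower and 3 (7.5%) nominally higher, beside 20.2% and 6.76% of all genes. The median log2 difference of the crystallins was 0.21, with 0.59 in GF and -0.16 in ZM, against a median of -0.0045 over all genes tested. The crystallin median came to -0.00 without CV replicate 3, where 4 of the genes were nominally lower and 0 higher. The fit without CV replicate 2 called 4 lower and 2 higher. The crystallin genes include near-identical copies whose reads can be divided between them, so single members are uncertain.

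Transcription factor genes that drive photoreceptor differentiation were among the lower ones too. One crx gene (ENSDARG00000011989) had 7.5, 4.49 and 5.87 FPKM in GF samples and 2.72, 3.84 and 8.47 FPKM in ZM samples, against 22.1, 11.2 and 33.3 FPKM in CV samples. A second gene with that name (CRX, ENSDARG00000043483) had 3.26, 2.95 and 3.65 FPKM in GF samples and 1.93, 2.41 and 6.54 FPKM in ZM samples, against 11.1, 7.04 and 27.7 FPKM in CV samples. Their log2 differences were -1.79 (SE 0.35) and -1.73 (SE 0.39), and every sterilized sample was below every CV sample. In the limma fit without CV replicate 2 their adjusted p was 0.00335 and 0.00781. The retinal homeobox gene rx1 had -0.80 (SE 0.23). Of the 14 markers of photoreceptors and retina tested, 5 (35.7%, beside 20.2% of all genes) were nominally lower and 0 higher, with a median of -0.38. The mean was lower in sterilized samples for 10 of the 14 and higher for 4. The median was -0.17 without CV replicate 3, with 3 nominally lower, and without CV replicate 2, 5 of the 14 fell and 0 rose.

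Many chromatin regulators were nominally lower in sterilized samples, counted with GF and ZM together. Of 48 chromatin remodeler genes tested, which move or eject nucleosomes, 33 (68.8%, beside 20.2% of all genes) were nominally lower and 2 higher, and without CV replicate 2, 30 fell and 2 rose at an adjusted p under 0.05. The median log2 difference was -0.60, with -0.66 in GF and -0.56 in ZM, and without CV replicate 3 it was -0.41, with 23 nominally lower and 0 higher. SMARCE1, a subunit of the BAF nucleosome remodeling complex, had 16.3, 13.6 and 16.8 FPKM in GF samples and 26.9, 42.7 and 27.7 FPKM in ZM samples, against 72.6, 36.8 and 106.6 FPKM in CV samples. Here ZM replicate 2 lay above CV replicate 2, so the groups overlapped. The log2 difference was -1.53 (SE 0.29; -2.02 in GF, -1.03 in ZM). BAZ2B, a bromodomain protein of ISWI-type complexes, differed by -1.57 (SE 0.32), EP400, the ATPase of the TIP60 complex, by -1.17 (SE 0.25) and ino80db, a subunit of the INO80 complex, by -0.96 (SE 0.21).

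Among enzymes that write or erase histone methylation, 44 of 73 (60.3%, beside 20.2% of all genes) were nominally lower and 2 higher, with a median of -0.56 (without CV replicate 2, 38 lower and 2 higher at an adjusted p under 0.05). KDM5B (ENSDARG00000003098), a demethylase of histone H3 lysine 4, had 14.4, 14.7 and 12.1 FPKM in GF samples and 9.56, 14.1 and 18.8 FPKM in ZM samples, against 42.2, 20.8 and 47.9 FPKM in CV samples (log2 difference -1.29, SE 0.27). All 6 sterilized samples were below CV. KMT2C, a methyltransferase of enhancers, differed by -0.80 (SE 0.17), prdm16 by -1.16 (SE 0.25) and PRMT5, an arginine methyltransferase, by -0.59 (SE 0.13). Of the 40 genes of histone acetylation, 17 (42.5%) were nominally lower and 2 (5%) higher, beside 20.2% and 6.76% of all genes. Among the lower ones were both copies of EP300 (ENSDARG00000061108 and ENSDARG00000100666), the acetyltransferase p300, at -1.01 (SE 0.22) and -0.90 (SE 0.21). The median of that group was -0.12, and 0.06 among its members with a mean FPKM of at least 5, and no direction is given for the group. It was -0.05 without CV replicate 3, with 13 nominally lower, and in the fit without CV replicate 2, 15 of the 40 fell and 0 rose.

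Genes that process RNA and carry it or proteins through the nuclear pore were lower in many members. Of 89 splicing factors of the hnRNP, SR and FET families, 39 (43.8%, beside 20.2% of all genes) were nominally lower and 0 higher, with a median of -0.24 (without CV replicate 2, 33 lower and 3 higher at an adjusted p under 0.05). HNRNPM had 34.7, 36.3 and 33.9 FPKM in GF samples and 35.0, 49.5 and 54.2 FPKM in ZM samples, against 162.2, 59.9 and 136.5 FPKM in CV samples (log2 difference -1.44, SE 0.27). The samples did not overlap, with CV replicate 2 just above ZM replicate 3. The close relatives hnrnpr and SYNCRIP differed by -1.57 (SE 0.32) and -1.32 (SE 0.29), and ewsr1b, a gene of the FET family, by -1.13 (SE 0.22). All 4 had an adjusted p of 0.00101 without CV replicate 2.

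Of 31 nucleoporins, which build the nuclear pore, 17 (54.8%, beside 20.2% of all genes) were nominally lower and 1 higher, with a median of -0.48. NUP98 had 4.91, 4.44 and 3.82 FPKM in GF samples and 5.84, 5.81 and 5.49 FPKM in ZM samples, against 9.09, 7.66 and 11.6 FPKM in CV samples (log2 difference -0.78, SE 0.15). NUP133 and NUP205, of the outer and inner rings of the pore, differed by -0.85 (SE 0.18) and -1.08 (SE 0.24). Of 27 importins and exportins, which ferry cargo through it, 16 (59.3%) were nominally lower and 0 higher, with a median of -0.57. KPNA4, an importin alpha, had 8.24, 8.04 and 5.63 FPKM in GF samples and 8.73, 10.8 and 10.4 FPKM in ZM samples, against 26.9, 12.3 and 34.5 FPKM in CV samples (log2 difference -1.32, SE 0.27). Both genes were lower in GF than in ZM in their means and lower in both than in CV, without overlap with CV. Without CV replicate 2, 16 nucleoporins (51.6%) and 12 importins and exportins (44.4%) fell and 0 of either rose, beside 15.5% and 4.03% of all genes. Leaving out CV replicate 3 gave medians of -0.33 and -0.37, with 14 and 13 nominally lower.

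Many ligands and receptors that guide growing axons were nominally lower. Of 28 semaphorins, plexins and neuropilins, 16 (57.1%, beside 20.2% of all genes) were nominally lower and 0 higher, and 26 had a lower mean in sterilized samples. SEMA6A had 1.13, 0.413 and 0.456 FPKM in GF samples and 1.05, 1.77 and 0.679 FPKM in ZM samples, against 4.82, 1.9 and 8.01 FPKM in CV samples (log2 difference -1.52, SE 0.33). The receptors PLXNA1 and PLXNB1 differed by -0.86 (SE 0.20) and -0.98 (SE 0.23). Of 41 ephrins, slits, netrins and their receptors, 22 (53.7%) were nominally lower and 0 higher. ROBO3, a receptor of the roundabout family that lets axons cross the midline, had 4.1, 2.64 and 2.38 FPKM in GF samples and 3.0, 3.9 and 1.59 FPKM in ZM samples, against 12.3, 5.91 and 15.4 FPKM in CV samples, and differed by -1.58 (SE 0.30). In SEMA6A and ROBO3 no sterilized sample reached the lowest CV sample. EPHB3, an ephrin receptor, differed by -1.28 (SE 0.26), and NTN1 (ENSDARG00000022531), a netrin, by -1.24 (SE 0.26). The medians were -0.65 for semaphorins and their receptors and -0.61 for the others. Without CV replicate 2, 13 (46.4%) and 17 (41.5%) of these genes fell and 0 rose, beside 15.5% and 4.03% of all genes. The list medians were -0.36 and -0.34 without CV replicate 3, with 11 and 18 nominally lower.

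Adhesion and matrix genes followed. All 19 laminins, fibrillins and other large matrix proteins had a lower mean in sterilized samples, and 13 (68.4%) were nominally lower. TNC (ENSDARG00000021948), the matrix protein tenascin C, had 13.6, 12.9 and 11.2 FPKM in GF samples and 12.4, 14.3 and 13.0 FPKM in ZM samples, against 27.7, 20.2 and 55.1 FPKM in CV samples (log2 difference -1.22, SE 0.25). FBN3, a fibrillin, and AGRN, the organizer of neuromuscular synapses, differed by -1.28 (SE 0.29) and -1.21 (SE 0.30). Their summed FPKM was 71.4 to 87.4 in sterilized samples, against 120.6 to 236.7 in CV samples, without overlap. Of 62 collagens and collagen-processing enzymes, 34 (54.8%) were nominally lower and 3 (4.84%) higher, beside 20.2% and 6.76% of all genes, with a median of -0.51. The 3 higher ones included SERPINH1, described below. Of 20 cadherins and catenins, 12 (60%) were nominally lower and 0 higher. CDH2, the neural cadherin, had 21.5, 20 and 11.5 FPKM in GF samples and 16.7, 19.4 and 15 FPKM in ZM samples, against 42.5, 26.8 and 50.9 FPKM in CV samples (log2 difference -1.14, SE 0.23). The share of all genes called lower without CV replicate 2 was 15.5%. With that sample left out, 25 collagen genes (40.3%) fell and 1 rose, and 7 of the large matrix proteins (36.8%) and 8 cadherins and catenins (40%) fell. With CV replicate 3 left out in its place, 18 collagen genes, 8 large matrix proteins and 8 cadherins and catenins were nominally lower, and the median was -0.29 for the collagens and -0.39 for the large matrix proteins, whose median over all samples was -0.65.

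Components of several developmental signaling pathways were lower in sterilized samples, at shares that stand beside 20.2% nominally lower over all genes. Of 69 Wnt pathway genes, 31 (44.9%) were nominally lower and 1 higher, with a median of -0.26. CTNNB1, one of the beta-catenin genes at the core of the pathway, had 33.2, 36.4 and 31.4 FPKM in GF samples and 48.0, 75.3 and 46.8 FPKM in ZM samples, against 164.4, 62.6 and 169.4 FPKM in CV samples. ZM replicate 2 exceeded CV replicate 2, and the log2 difference was -1.46 (SE 0.30; -1.81 in GF, -1.11 in ZM). Its copy ctnnb2 differed by -1.21 (SE 0.25), GSK3B, the kinase that marks beta-catenin for degradation, by -1.46 (SE 0.27) and TCF7L2, a transcription factor that beta-catenin binds, by -1.33 (SE 0.25). The pathway's activator and its inhibitory kinase thus lay on the same side of CV.

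Of 37 FGF pathway genes, 17 (45.9%) were nominally lower and 0 higher, among them SPRED3, an inhibitor of the pathway, at -0.93 (SE 0.23) and etv5a, one of its targets, at -0.80 (SE 0.20), with FGFR2 and ETV4 above. The mean was lower in sterilized samples for 24 of the 37 and higher for 13. DUSP6 and fgfr4, of the same list, differed by -0.08 and 0.13 without CV replicate 2 (limma, adjusted p = 0.587 and 0.608). Of 18 Hedgehog pathway genes, 8 were nominally lower and 1 higher. The co-receptors CDON and BOC differed by -1.22 (SE 0.26) and -1.12 (SE 0.25), and the transcription factor GLI2 by -0.73 (SE 0.18). Of 38 Notch pathway genes, 15 (39.5%) were nominally lower and 0 higher, although the median was 0.06. The ligand jag2b differed by -1.08 (SE 0.21) and the receptors NOTCH3 and NOTCH1 (ENSDARG00000103554) by -1.48 (SE 0.35) and -1.37 (SE 0.35). Of 57 BMP and TGF-beta pathway genes, 18 were nominally lower and 0 higher, including the signal transducers SMAD5 at -0.99 (SE 0.22), SMAD2 at -1.17 (SE 0.27) and SMAD1 at -0.67 (SE 0.16). Means were lower in sterilized samples for 39 of the 57 and higher for 18. ID1 and ID2, of this list, each differed by 0.37 without CV replicate 2 (limma, adjusted p = 0.0834 and 0.079). In the fit without CV replicate 2, 25 Wnt, 15 FGF, 7 Hedgehog, 14 Notch and 9 BMP and TGF-beta genes fell at an adjusted p under 0.05 and 0 of them rose, which is 36.2%, 40.5%, 38.9%, 36.8% and 15.8% of the members, beside 15.5% of all genes. The share of the BMP and TGF-beta list was thus near that of all genes. The medians of the FGF and Hedgehog lists, -0.34 and -0.32 with all samples, were -0.15 and -0.18 without CV replicate 3, and that of the Notch list turned to -0.06. In that fit 23 Wnt, 12 FGF, 7 Hedgehog, 11 Notch and 6 BMP and TGF-beta genes were nominally lower, the last being 10.5% of its list, beside 13% of all genes.

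Many transcription factor genes that pattern the brain were nominally lower, whereas neuronal gene lists varied. Of 128 homeobox genes of forebrain, midbrain and placodes, 53 (41.4%) were nominally lower and 2 higher, with a median of -0.34, and without CV replicate 2, 47 fell and 2 rose. The median was -0.19 without CV replicate 3, with 32 nominally lower and 0 higher. MEIS2 had 14.9, 10.3 and 10.9 FPKM in GF samples and 12.3, 15.2 and 14.7 FPKM in ZM samples, against 53.4, 21.9 and 70.6 FPKM in CV samples, a log2 difference of -1.68 (SE 0.30). OTX2, a determinant of forebrain and midbrain, had 10.7, 12.2 and 10.7 FPKM in GF samples and 10.3, 14.2 and 16.1 FPKM in ZM samples, against 46.7, 16.8 and 52.6 FPKM in CV samples (log2 difference -1.43, SE 0.31). In both genes CV replicate 2 was the only CV sample near the sterilized ones. The PBX gene pbx4 differed by -1.43 (SE 0.29), and PAX2 (ENSDARG00000028148), which marks the border of midbrain and hindbrain, by -1.07 (SE 0.21). Of 37 Hox genes, which pattern the hindbrain and trunk, 6 were nominally lower and 0 higher, with a median of -0.04, a share of 16.2% beside 20.2% of all genes.

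Of 9 neuronal markers, 4 (44.4%, beside 20.2% of all genes) were nominally lower and 0 higher, with a median of -0.71. ELAVL3, an RNA-binding protein of new neurons, had 41.9, 38.3 and 29.7 FPKM in GF samples and 42.3, 42.5 and 40 FPKM in ZM samples, against 113.2, 53.8 and 148.3 FPKM in CV samples (log2 difference -1.29, SE 0.26). The neurofilament gene nefma had 3.03, 2.71 and 2.17 FPKM in GF samples and 2.18, 2.23 and 2.91 FPKM in ZM samples, against 9.28, 4.04 and 9.58 FPKM in CV samples (log2 difference -1.22, SE 0.24). Neither overlapped. The summed level of the 9 markers did overlap, at 578.7 to 1012.2 FPKM in sterilized samples, against 722.6 to 1133.8 FPKM in CV samples. The median of these markers was -0.40 without CV replicate 3, with 3 nominally lower, and -1.0 without CV replicate 2, where 5 of the 9 fell and 0 rose.

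Other neuronal lists lay on both sides of the 20.2% of all genes that were nominally lower. Of 44 genes of presynaptic vesicle release, 13 (29.5%) were nominally lower and 1 higher, with a median of -0.32 that was -0.15 without CV replicate 3, where 7 were nominally lower. Of 60 ion channel genes, 11 (18.3%) were nominally lower and 0 higher, and of 43 neurotransmitter receptor genes, 5 (11.6%) were lower and 0 higher. Of 23 proneural bHLH factors, which commit progenitors to the neuronal fate, 1 (4.35%) was nominally lower and 1 (4.35%) higher, with a median of 0.02. Leaving out CV replicate 2, limma called 8 presynaptic, 8 ion channel, 3 receptor and 1 proneural gene lower, and 1 presynaptic and 1 proneural gene higher. The 5 markers of radial glia had a median of 0.18 with 0 of them nominally lower or higher, and among them GFAP had 56.1 to 73.3 FPKM in sterilized samples, against 69.4 to 74.0 FPKM in CV samples. Among 9 markers of neural progenitors, 3 (33.3%) were nominally lower and 1 (11.1%) higher, with a median of 0.01. The mean was lower in sterilized samples for 4 of the 9 and higher for 5. SOX2, one of those with a lower mean, had 21.7 to 27.2 FPKM in sterilized samples, against 57.0, 25 and 48.7 FPKM in CV samples. The radial glia median was 0.03 without CV replicate 3.

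**Figure D3:**
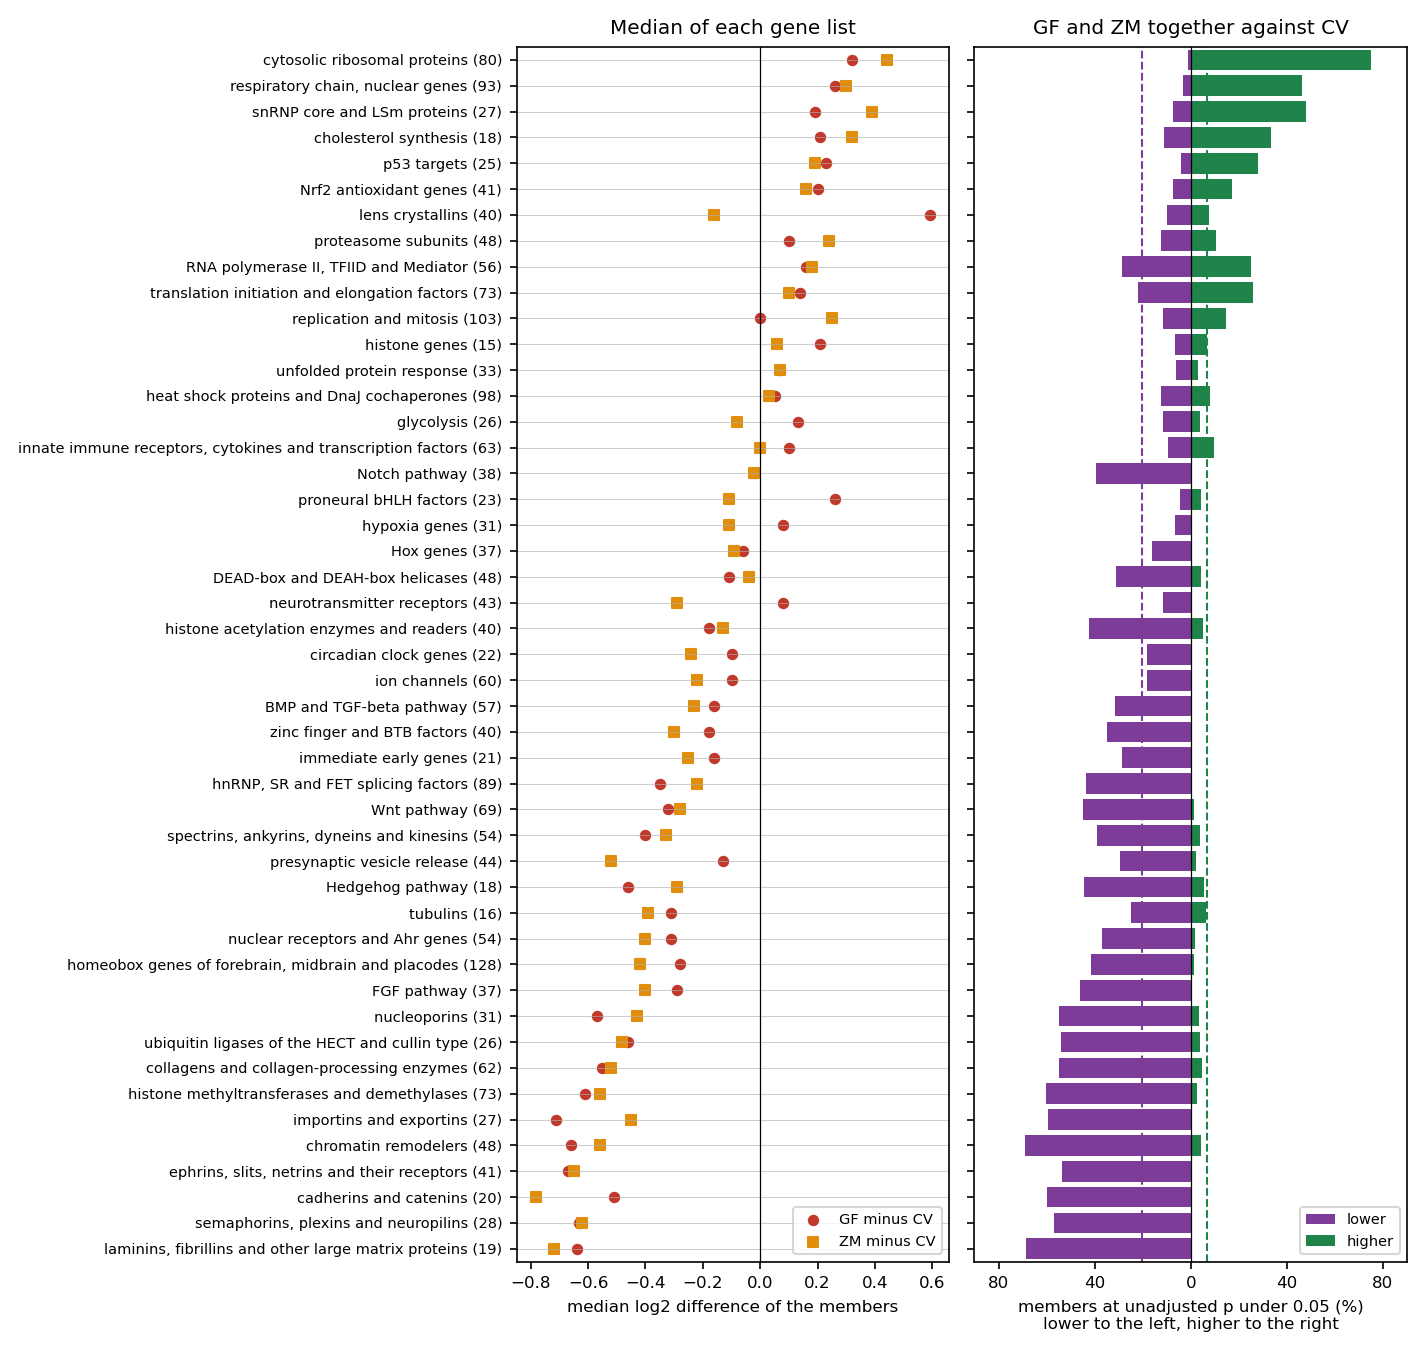
Left, median log2 difference of the members of each gene list (number tested in brackets) in GF minus CV and ZM minus CV. Right, percent of members nominally lower (left) or higher (right) in GF and ZM together against CV, with the share of all genes tested as dashed lines (20.2% lower, 6.76% higher). The dashed lines do not account for the level of the genes. Ribosomal proteins are at the top with 75% higher, and chromatin remodelers and large matrix proteins near the bottom with 68.8% and 68.4% lower.

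The genes that were higher in sterilized samples included many of protein synthesis and respiration. Of 80 cytosolic ribosomal protein genes tested, 60 (75%) were nominally higher and 1 lower, against 6.76% and 20.2% of all genes, and 79 had a higher mean in sterilized samples. Among all genes averaging 100 FPKM or more, 31.8% were nominally higher and 5.57% lower. The median level of the ribosomal genes was above that bound in every sample. The median log2 difference was 0.38, with 0.32 in GF and 0.44 in ZM. It stayed above 0 in each rescaling, at 0.47, 0.25 and 0.13 after median-of-ratios, equal-sum and quantile scaling. All 6 sterilized samples were above all CV samples for 34 of the 80, beside 3.37% of all genes tested. The acidic stalk protein gene rplp2 had 1075.9, 1309.3 and 1365.9 FPKM in GF samples and 1279.3, 1295.3 and 1274.8 FPKM in ZM samples, against 891.8, 877.0 and 736.8 FPKM in CV samples, a log2 difference of 0.60 (SE 0.12, adjusted p = 0.0507). RPL29 had 858.1, 593.3 and 1032.7 FPKM in GF samples and 1283.0, 811.9 and 949.5 FPKM in ZM samples, against 541.9, 558.5 and 392.8 FPKM in CV samples (log2 difference 0.87, SE 0.21). RPS19 differed by 0.49 (SE 0.13), and RPS6, among the most abundant, had 3381.7 to 4245.2 FPKM in sterilized samples, against 2381 to 3134 FPKM in CV samples. Ribosomal protein genes made up 24.2 to 30.2% of the FPKM sum in sterilized samples, against 20.7 to 24.2% in CV samples, so the ranges met at 24.2%. Without CV replicate 2, 16 of the 80 (20%) rose and 1 fell, beside 4.03% and 15.5% of all genes. Without CV replicate 3, the median was 0.25, and 20 (25%) were nominally higher, beside 1.85% of all genes. Ribosomal protein genes have near-identical copies that can share reads, which leaves single members uncertain.

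The one ribosomal member nominally lower was RPLP0, the partner of rplp2 in the ribosomal stalk, which is named after its values were seen. It had 1443.9, 2118.8 and 1493.0 FPKM in GF samples and 1871.3, 1937.4 and 2012.1 FPKM in ZM samples, against 3602.2, 1731.6 and 2818.6 FPKM in CV samples. CV replicate 2 lay within the sterilized range, and the log2 difference was -0.54 (SE 0.22, unadjusted p = 0.0331 from limma).

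Of 93 nuclear genes of the respiratory chain, 43 (46.2%) were nominally higher and 3 lower, with a median of 0.29. Over all genes, 16.5% were nominally higher at 20 to 100 FPKM and 31.8% at 100 FPKM or more. UQCRB, of complex III, had 141.5, 150.1 and 153.6 FPKM in GF samples and 204.6, 177.0 and 187.3 FPKM in ZM samples, against 140.2, 127.1 and 102.5 FPKM in CV samples (log2 difference 0.45, SE 0.12). All sterilized samples were above all CV samples, the lowest GF sample by a small margin. NDUFS7, of complex I, differed by 0.39 (SE 0.12). The 13 respiratory genes of the mitochondrial genome did not share this, with 0 at an unadjusted p under 0.05 and a median of 0.11 that turned to -0.03 and -0.11 after equal-sum and quantile scaling. Of 27 snRNP core and LSm proteins, which form the core of the spliceosome, 13 (48.1%) were nominally higher and 2 lower. SNRPG had 185.0, 190.3 and 203.1 FPKM in GF samples and 257.2, 236.1 and 228.6 FPKM in ZM samples, against 162.6, 179.1 and 157.1 FPKM in CV samples (log2 difference 0.37, SE 0.10). The 2 lower ones, LSM14A and lsm14aa at -1.04 (SE 0.24) and -0.69 (SE 0.21), are proteins of cytoplasmic RNA granules rather than of the spliceosome core. With CV replicate 2 left out, 31 respiratory genes rose and 3 fell, and 11 snRNP core and LSm genes rose and 2 fell. The medians of these lists, 0.29 and 0.27 with all samples, were both 0.17 without CV replicate 3, where 5 (5.38%) and 2 (7.41%) of the genes were nominally higher.

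Of 18 genes of cholesterol synthesis, 6 (33.3%) were nominally higher and 2 (11.1%) lower, beside 6.76% and 20.2% of all genes, with a median of 0.25. CYP51A1, the lanosterol demethylase, had 4.67, 8.65 and 5.21 FPKM in GF samples and 7.14, 7.82 and 6.96 FPKM in ZM samples, against 3.38, 3.6 and 3.73 FPKM in CV samples (log2 difference 0.74, SE 0.18; without CV replicate 2, adjusted p = 0.0363). MVD, NSDHL, MSMO1 and FDPS, enzymes of the same pathway, differed by 0.60 (SE 0.16), 0.49 (SE 0.13), 0.53 (SE 0.15) and 0.47 (SE 0.14). The transcription factor gene of the pathway, srebf2, lay on the other side, with 1.94, 1.82 and 1.19 FPKM in GF samples and 3.02, 4.27 and 1.89 FPKM in ZM samples, against 5.67, 3.38 and 9.69 FPKM in CV samples (log2 difference -1.08, SE 0.28). In the fit without CV replicate 2, 6 genes of the list (33.3%) rose and 2 (11.1%) fell, beside 4.03% and 15.5% of all genes. In the fit without CV replicate 3, 4 (22.2%) were nominally higher, beside 1.85% of all genes.

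Single genes led the higher ones in size. SERPINH1 (ENSDARG00000019949), the collagen chaperone HSP47, had 446.9, 192.8 and 255.9 FPKM in GF samples and 174.8, 201.9 and 299.3 FPKM in ZM samples, against 169.5, 77.1 and 81.1 FPKM in CV samples. All 6 sterilized samples were above CV, 1 of them narrowly, and the log2 difference was 1.27 (SE 0.32, adjusted p = 0.0507). Without CV replicate 2 it was 1.07 (adjusted p = 0.0745). MYL9 (ENSDARG00000038123), a regulatory light chain of smooth muscle and nonmuscle myosin, had 29.6, 26.2 and 31.2 FPKM in GF samples and 33.5, 27.5 and 27.5 FPKM in ZM samples, against 10.6, 12.3 and 21.1 FPKM in CV samples (log2 difference 1.0, SE 0.19; without CV replicate 2, adjusted p = 0.0228). Of the 226 genes higher in both groups, the other 2 with a log2 difference of 1 or higher were tcnbb, a carrier of vitamin B12, at 1.08 (SE 0.41), and ENSDARG00000113150, which has no symbol, at 1.05 (SE 0.22). They are named because the count was small.

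The gene agr1, of the anterior gradient family of protein disulfide isomerases, had 205.9, 273.0 and 252.8 FPKM in GF samples and 230.1, 255.6 and 223.3 FPKM in ZM samples, against 128.7, 171.1 and 148.9 FPKM in CV samples (log2 difference 0.68, SE 0.13; without CV replicate 2, adjusted p = 0.00469). Of 18 epidermal markers, 9 (50%) were nominally higher and 2 (11.1%) lower, beside 6.76% and 20.2% of all genes, with a median of 0.33. Among all genes averaging 100 FPKM or more, 31.8% were nominally higher and 5.57% lower. The median level of the epidermal markers was above that bound in every sample. The summed FPKM of these markers was 16375 to 21607 in sterilized samples, against 15033 to 15937 in CV samples. The groups did not overlap in that sum, and its part in the higher genes was not tested. Without CV replicate 2, 1 of the 18 rose and 2 fell, and without CV replicate 3, 4 were nominally higher and 0 lower. The keratin krt5 lay on the other side, with 152.4 to 261.1 FPKM in sterilized samples, against 208.4 to 465.3 FPKM in CV samples (log2 difference -0.81, SE 0.26). Among 25 p53 target genes, 7 (28%) were nominally higher and 1 (4%) lower, beside the same shares of all genes. The higher ones included CCNG1, cyclin G1, with 294.5, 329.8 and 364.2 FPKM in GF samples and 311.0, 356.8 and 315.5 FPKM in ZM samples, against 252.1, 270.7 and 214.0 FPKM in CV samples (log2 difference 0.42, SE 0.12). In the fit without CV replicate 2, 3 p53 target genes (12%) rose and 1 (4%) fell, beside 4.03% and 15.5% of all genes.

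**Figure D4:**
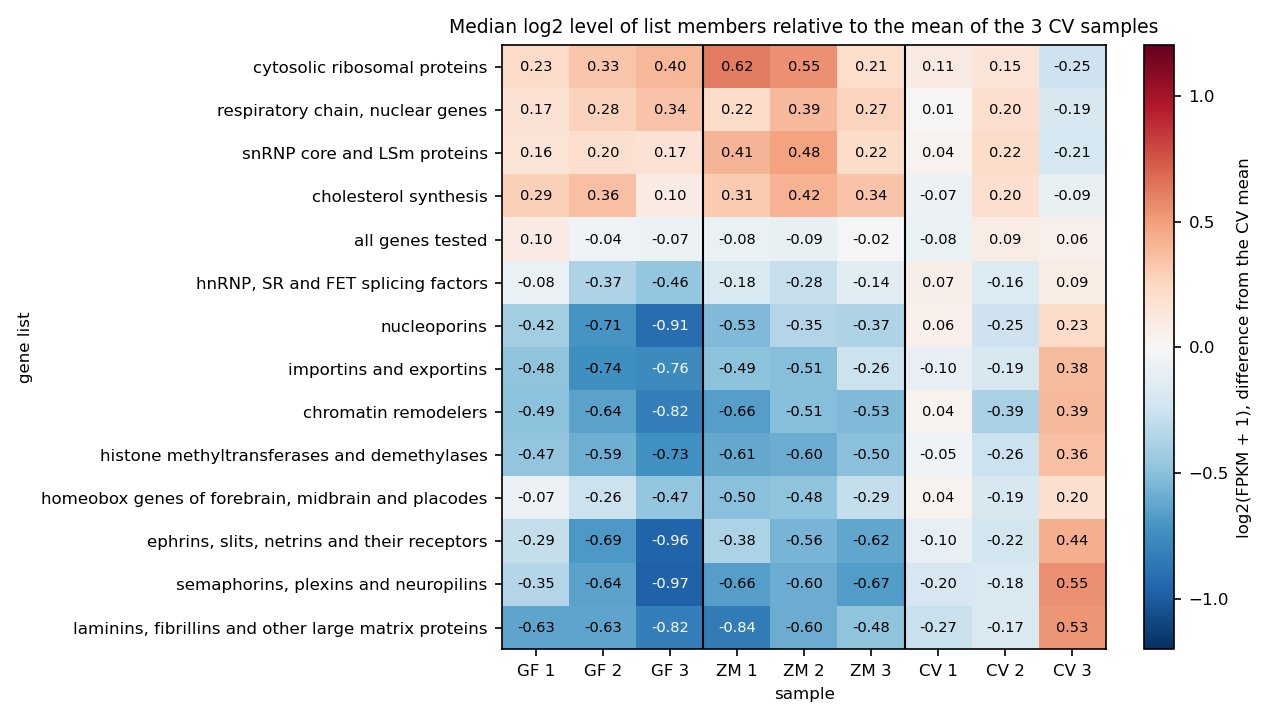
Median log2(FPKM + 1) of the members of each list in each sample, relative to the mean of the 3 CV samples, with GF on the left, ZM in the middle and CV on the right. Ribosomal proteins lay between 0.21 and 0.62 in the sterilized samples, against 0.11, 0.15 and -0.25 in CV replicates 1, 2 and 3. Large matrix proteins lay between -0.84 and -0.48, against -0.27, -0.17 and 0.53.

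In some complexes, members fell on both sides of CV. Their counts stand beside 20.2% nominally lower and 6.76% nominally higher over all genes tested. A lower share near 20.2% does not set a complex apart from all genes. The subunit classes and the genes named here were chosen after their values were seen and are a description. Transcript length and RNA integrity were not analysed here, so their part in this pattern was not tested either. Of 13 RNA polymerase II subunits, 2 were nominally lower and 6 higher. The lower ones were its 2 largest subunits. POLR2A had 1.45, 1.21 and 1.32 FPKM in GF samples and 2.17, 4.14 and 1.77 FPKM in ZM samples, against 8.32, 2.74 and 9.75 FPKM in CV samples, and POLR2B had a similar log2 difference, -1.36 (SE 0.33) beside -1.33 (SE 0.32) for POLR2A. POLR2L, a small subunit, had 82.5, 90.3 and 99.9 FPKM in GF samples and 96.0, 84.3 and 116.8 FPKM in ZM samples, against 63.3, 60.1 and 64.4 FPKM in CV samples (log2 difference 0.58, SE 0.12). Of 31 Mediator subunits, 9 were nominally lower, including MED12 at -1.19 (SE 0.27), MED14 at -1.23 (SE 0.30) and MED23 at -1.33 (SE 0.30), and 6 were higher, including MED7 at 0.33 (SE 0.12) and MED10 at 0.28 (SE 0.12). Of 12 subunits of the initiation factor TFIID, 5 were nominally lower and 2 higher, TAF1L differing by -0.86 (SE 0.19) and TAF10 by 0.27 (SE 0.10).

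Complexes of protein turnover, translation and energy supply also held members on both sides, whereas others were one-sided. In complex I of the respiratory chain, 0 of 38 genes were nominally lower and 18 higher. In complex IV, 0 of 21 were lower and 11 higher, and in the small ribosomal subunit, 0 of 34 were lower and 23 higher. In the proteasome, 4 of 17 regulatory non-ATPase subunits were nominally lower, namely PSMD1 at -1.53 (SE 0.32), both PSMD2 genes at -1.25 (SE 0.25) and -1.19 (SE 0.27) and PSMD3 at -1.08 (SE 0.25), while PSMD9 was nominally higher at 0.50 (SE 0.14). In ATP synthase, 8 of 20 subunit genes were nominally higher and 2 lower. Those 2 encode the subunits of the catalytic head, ATP5F1B, with 249.1, 317.9 and 190.7 FPKM in GF samples and 240.9, 299.1 and 287.1 FPKM in ZM samples, against 675.6, 365.1 and 598.6 FPKM in CV samples, and ATP5F1A. Their log2 differences were -1.02 (SE 0.21) and -1.23 (SE 0.28). Of 73 translation initiation and elongation factors, 16 (21.9%) were nominally lower and 19 (26%) higher. The lower share was near the 20.2% of all genes. The elongation factor eef1a1l1 had 1802.8, 2137.8 and 1779.3 FPKM in GF samples and 2123.3, 2407.5 and 2259.9 FPKM in ZM samples, against 5684.1, 2503.8 and 5284.8 FPKM in CV samples (log2 difference -1.03, SE 0.23). EEF1G had 1871.4, 1918.0 and 2049.7 FPKM in GF samples and 2010.2, 1877.1 and 1826.1 FPKM in ZM samples, against 1477.1, 1619.8 and 1316.8 FPKM in CV samples (log2 difference 0.39, SE 0.11). In POLR2A, ATP5F1B, eef1a1l1 and EEF1G it was again CV replicate 2 that lay nearest to the sterilized samples.

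One such pair stood out by name among the leading genes. PAFAH1B3, whose product pairs with that of PAFAH1B1, had 55.2, 49.4 and 45.6 FPKM in GF samples and 49.1, 45.3 and 43.4 FPKM in ZM samples, against 36.5, 12 and 33.1 FPKM in CV samples (log2 difference 0.94, SE 0.28), while PAFAH1B1 lay on the other side of CV. CV replicate 2 was the lowest CV sample in both genes, so for PAFAH1B3 it lay farthest from the sterilized samples.

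Lists of genes that microbes or stress are known to regulate varied. Of 63 innate immune receptors, cytokines and transcription factors, 6 (9.52%) were nominally lower and 6 (9.52%) higher, beside 20.2% and 6.76% of all genes, with a median of 0.06. Of 98 heat shock proteins and DnaJ cochaperones, 12 (12.2%) were lower and 8 (8.16%) higher, the latter near the share of all genes. Among them HSP90AB1 had 364.9, 415.5 and 260.3 FPKM in GF samples and 474.3, 468.3 and 488.6 FPKM in ZM samples, against 1173.0, 465.8 and 1046.1 FPKM in CV samples (log2 difference -1.04, SE 0.27). CV replicate 2 was level with the ZM samples. Of 33 genes of the unfolded protein response, 2 were lower and 1 higher, and of 31 hypoxia genes, 2 were lower and 0 higher. Of 103 replication and mitosis genes, 12 (11.7%) were lower and 15 (14.6%) higher. Of 41 Nrf2 antioxidant genes, 3 (7.32%) were lower and 7 (17.1%) higher, with a median of 0.21 that was 0.10 without CV replicate 3. In the fit without CV replicate 2, the counts of genes that fell and rose were 3 and 1 for the innate immune list, 10 and 5 for heat shock proteins, 2 and 0 for the unfolded protein response, 1 and 0 for hypoxia genes, 12 and 2 for replication and mitosis and 3 and 5 for Nrf2 genes.

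CYP1A1, the target of the aryl hydrocarbon receptor, had 5.21, 16.2 and 9.12 FPKM in GF samples and 38.5, 123.8 and 125.6 FPKM in ZM samples, against 3.31, 38.5 and 5.74 FPKM in CV samples. The log2 difference was -0.03 in GF and 3.03 in ZM, and 1.5 with both together (unadjusted p = 0.0467, adjusted p = 0.178 from limma). CV replicate 2 was level with ZM replicate 1 and decided the sign in GF. Without it the log2 difference was 0.93 in GF (unadjusted p = 0.137) and 3.99 in ZM (unadjusted p = 8.02e-05), and 2.46 together (adjusted p = 0.0115). Of 54 nuclear receptor and aryl hydrocarbon receptor genes, 20 (37%, beside 20.2% of all genes) were nominally lower and 1 higher, with a median of -0.33 that was -0.19 without CV replicate 3, where 11 were nominally lower. In the fit without CV replicate 2, 14 of them fell and 1 rose. The lower members included RARG, a retinoic acid receptor, at -1.01 (SE 0.19), and tiparp, another target of the aryl hydrocarbon receptor, at -1.15 (SE 0.26).

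Markers of tissues that a head sample could also hold were summed. The summed FPKM of skeletal muscle markers was 18182 to 31802 in sterilized samples, against 20760 to 25672 in CV samples. For liver and yolk it was 2161.5 to 4473.2 in sterilized samples, against 1776.9 to 5638.5 in CV samples. For erythrocytes it was 3189.3 to 4199.1 in sterilized samples, against 1609.9 to 3913.9 in CV samples. These ranges overlapped. Of these 3 lists, 1 muscle gene of 11 was nominally lower and none of the 19 liver and yolk or 9 erythrocyte genes was at an unadjusted p under 0.05. Markers of pronephros, at 18.2 to 23.6 FPKM in sterilized samples, against 27 to 37.7 FPKM in CV samples, did not overlap between the groups. Those of trunk and tail were at 54.6 to 87.5 FPKM in sterilized samples, against 85.6 to 123.8 FPKM in CV samples. Of 6 pronephros genes 2 (33.3%) were nominally lower and of 13 trunk and tail genes 1 (7.69%) was, with 0 higher. These shares stand beside 20.2% of all genes nominally lower. The fit without CV replicate 2 called 2 pronephros genes and 1 trunk and tail gene lower, beside 15.5% of all genes. Both lists name tissue behind the head, and their part in the lower genes was not tested. The 10 heart markers summed to 199.3 to 253.6 FPKM in sterilized samples, against 163.9 to 188.4 FPKM in CV samples, again without overlap. Of the 9 tested, 3 (33.3%) were nominally higher and 0 lower, beside 6.76% and 20.2% of all genes. With CV replicate 2 left out, 0 of the 9 rose or fell, and the part of the heart in the higher genes was not tested.

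One gene passed the test between the sterilized groups. With the threshold that the study used for this contrast, an adjusted p under 0.1, limma called 1 of the 15904 genes (0.00629%) as higher in ZM over GF and 0 (0%) as lower, while 406 (2.55%) were nominally higher in ZM and 502 (3.16%) nominally lower. The called gene was ZBTB18, a zinc finger repressor that acts in neuronal differentiation, with 15.4, 14.7 and 8.09 FPKM in ZM samples, 2.78, 2.6 and 1.86 FPKM in GF samples and 17.0, 16.5 and 17.2 FPKM in CV samples. All ZM samples were above all GF samples and below all CV samples. Samples of the same number in ZM and GF deviated together, and with the replicate number as a block in all 9 samples ZBTB18 was again the single gene called (adjusted p = 0.052), with 542 genes nominally higher and 580 nominally lower in ZM. In the 6 ZM and GF samples alone, paired by number, 2 genes were called as higher in ZM and 0 as lower, ZBTB18 (adjusted p = 0.0454) and CYP1A1 (log2 difference 3.06, adjusted p = 0.0387), with 1538 genes nominally higher and 1176 nominally lower. No label gives this pairing. It was read from these same data, so the p-values of both block fits are a description. By root mean square log2 distance, ZM replicate 1 lay closer to GF replicate 2 (0.368) than to GF replicate 1 (0.436). In the model of all 9 samples without a block, the log2 difference of ZBTB18 was 1.97 in ZM against GF (adjusted p = 0.0848) and -0.43 (SE 0.23) in ZM against CV, and the -2.40 (SE 0.23) in GF against CV was the only difference from CV at an adjusted p under 0.05 in either group (adjusted p = 0.0138; 1 gene, 0.00629%, lower in GF, and 0 genes, 0%, higher in GF or in either direction in ZM). Other leading lower genes had such an order as well, among them PAFAH1B1, FGFR2, SYMPK and SCAF4, whose values are given above. Another was proza, a protein Z gene of the coagulation family, with 4.73, 4.78 and 7.43 FPKM in ZM samples, 2.19, 1.55 and 2.3 FPKM in GF samples and 12.9, 7.44 and 8.08 FPKM in CV samples (log2 difference in ZM against GF 1.13, unadjusted p = 0.000778 from limma). The gamma crystallins crygm2d9, crygmxl2 and crygm2d6 ran the other way, at -0.98, -0.91 and -0.88 in ZM against GF.

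Where GF and ZM stood relative to each other was also counted. Of the 3216 genes nominally lower in sterilized samples, the ZM mean was above the GF mean in 73%, against 50.8% of all genes tested. ZM was nominally higher than GF in 3.2% of these genes and nominally lower in 0.591%, against 2.55% and 3.16% of all genes. Of the 1075 nominally higher genes, the ZM mean was above the GF mean in 66.3%, which is farther from CV.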

How the data were processed

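The authors checked the reads with FastQC 0.11.8, aligned them to the zebrafish assembly GRCz11 with HISAT2 2.1.0, and deposited FPKM values per gene from StringTie 1.3.4d. The study states a range of reads per sample, and that RNA integrity was above its cutoff in all samples. A table of counts was not used here, so the exact depth of each sample is unknown and no counting interval is given. Poly(A) RNA and a directional library kit were used. Near-identical gene copies can share reads.

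FPKM was analysed as log2(FPKM + 1), a pseudocount of 1, for genes with a mean of at least 1. A log2 difference on this scale understates the change of low genes. With R 4.3.3 and limma 3.58.1, 1 linear model with the groups GF, ZM and CV was fitted to all 9 samples (lmFit, contrasts, eBayes with trend). The contrasts were the mean of GF and ZM minus CV, GF minus CV, ZM minus CV and ZM minus GF. Tests were two-sided, and p-values were adjusted by Benjamini-Hochberg over all 15904 genes, with a threshold of 0.05 (0.1 for ZM against GF). Values per sample, such as the FPKM sum, were compared by an exact permutation test with scipy 1.17.1 in Python 3.11.15, for which 6 samples against 3 allow no p under 0.0238. The model was tested on simulated data.

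Symbols came from a table of gene IDs and covered 29201 of the 32520 IDs. Names in capitals are human-style symbols, and where 2 zebrafish genes share one, the ID is given for the gene described or both are. Genes to name were the 15 lower and 15 higher genes with the smallest p among those with no overlap between sterilized and CV samples and 1 direction in GF and ZM, the 5 most abundant nominally different genes in each direction, the 5 with the smallest p in ZM against GF, and in each list up to 4 with the smallest p and up to 2 with the highest level. The text gives a selection of these. PAFAH1B3, RPLP0, tcnbb, the subunits of RNA polymerase II, Mediator and TFIID, the unnamed gene and the genes with opposite signs were named after their values were seen. The comparison, the gene lists and the tests were chosen with earlier results of these data known, and the subunit classes and the adjusted p under 0.1 for sterilized against CV after the values were seen. Lists are described by counts and medians without a test. Gene lengths, coordinates, sequences and RNA integrity were not analysed here.

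The alternatives were another pseudocount (0.1), other filters (mean FPKM of at least 5, or none), 3 scalings between samples, 2 groups in place of 3, group-specific sample weights, eBayes without trend, the replicate number as a block, and leaving out each sample in turn. Samples of the same number in sterilized groups and CV did not deviate together in every pair, with correlations between -0.058 and 0.488, so the numbers were not taken to pair them. Between ZM and GF the correlations of same-numbered samples were 0.409, 0.466 and 0.616, so the numbers were taken to pair these groups, from the data and not from a label, and a replicate block was added for ZM against GF after the values were seen.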

Additional observations from a re-analysis of the deposited data

Results flagged for a closer look

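In a few genes the sterilized groups lay on opposite sides of CV, so these genes do not differ from CV in the same direction with and without metabolites. In 2 genes all ZM samples were above and all GF samples below CV. DTL, a substrate receptor of a replication-coupled ubiquitin ligase, had 11.6, 8.71 and 7.68 FPKM in ZM samples and 6.59, 6.04 and 6.29 FPKM in GF samples, against 7.5, 7.63 and 7.32 FPKM in CV samples. ORC1, of the complex that marks replication origins, had 9.38, 7.03 and 3.53 FPKM in ZM samples and 2.91, 2.79 and 2.77 FPKM in GF samples, against 3.35, 3.0 and 3.13 FPKM in CV samples. In both genes ZM replicate 3 was closest to CV. In 8 genes all GF samples were above and all ZM samples below CV, namely PIK3IP1, cuedc2, nudt18, ppap2d, akt1s1, zgc:175284, METTL25B and CD164L2. Of these akt1s1, a substrate of the kinase Akt, had 57.4, 53 and 57.8 FPKM in ZM samples and 74.3, 78.7 and 82.9 FPKM in GF samples, against 63.2, 60.5 and 57.9 FPKM in CV samples. In ZM against GF each of the 10 genes had an adjusted p of 0.848 from limma, so the difference between the groups did not pass. ZBTB18 is listed here because its ZM and GF levels differed (ZM against GF, adjusted p = 0.0848 from limma, threshold 0.1), with all ZM samples above all GF samples.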

How the results depend on the processing

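The calls at an adjusted p under 0.05 depended on settings, since the smallest adjusted p lay at 0.0507. They numbered 991 lower and 38 higher with a pseudocount of 0.1, 1676 and 11 with an equal FPKM sum, 1191 and 46 with 2 groups in place of 3, and 868 and 43 with the replicate block. Those also at an unadjusted p under 0.05 in each of GF and ZM numbered 968 and 35, 1643 and 11, and 860 and 40 with the pseudocount of 0.1, the equal sum and the replicate block. Leaving out 1 sample gave 0 to 2460 lower and 0 to 641 higher, and 0 to 2424 and 0 to 560 with the added condition, above 0 only without CV replicate 2. The nominal calls ranged from 2060 to 3519 lower and 294 to 2205 higher, and those in both groups from 819 to 2728 and 64 to 913. Nominally lower genes were 1360 with a mean FPKM of at least 5. Nominally higher genes were 2046 with median-of-ratios scaling, 216 with an equal sum, 2235 with quantile normalization and 595 with group-specific weights. Genes lower in both groups were 836 with a mean FPKM of at least 5 and 1214 with quantile normalization. Genes higher in both were 362 with all genes, 495 with median of ratios, 45 with an equal sum and 645 with quantile normalization. A higher minimum tests fewer genes, and otherwise the cause was not tested.

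List medians of 0.1 or more in size, after rounding, that changed sign were those of the mitochondrial respiratory genes (-0.03 with an equal sum, -0.11 with quantile normalization), histone acetylation (0.06 with a mean FPKM of at least 5), ion channels (0.07 with that minimum), endothelium (0.12 with it, 0.09 with quantile normalization), replication (-0.00 with an equal sum), histone genes (-0.02 with it), lens (0.02 with quantile normalization), trunk and tail (0.04 with it) and neurotransmitter receptors (0.05 with it). Leaving out 1 sample gave -0.00 to 0.38 for lens crystallins and -0.11 to 0.46 for erythrocytes, below 0 without CV replicate 3, -0.40 to 0.30 for liver and yolk, above 0 without CV replicate 1 or ZM replicate 1 (0.01), and -0.22 to 0.01 for trunk and tail, not below 0 without GF replicate 1 (0.00) or ZM replicate 1. The other list medians moved by less than the spread between replicates in 1251 cases and by more in 25, and several medians nearer to 0, such as those of Notch, Hox, hypoxia and muscle genes, changed sign, so no direction is given for them. Of the 493 named genes, 102 had a difference of opposite sign in some setting, none of these at an adjusted p under 0.05, and 855 values of named genes crossed to an adjusted p under 0.05. The replicate block fit rests on numbers that were not taken to pair the sterilized with the CV samples. For ZM against GF, whose samples were taken as paired by number from the data and not from a label, 2 fits with the block were added with the data in view. The block in all 9 samples left the counts within 1.5 times, and in the 6 ZM and GF samples alone they were 2 higher genes at the threshold of 0.1 (limma) and 1538 nominally higher and 1176 nominally lower.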

Other observations

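Large proteins of the cytoskeleton and ubiquitin ligases were among the lower genes as well. Of 54 spectrins, ankyrins, dyneins and kinesins, 21 (38.9%) were nominally lower and 2 (3.7%) higher in sterilized samples, beside 20.2% and 6.76% of all genes. The median log2 difference was -0.31. Limma without CV replicate 2 called 14 (25.9%) lower and 2 (3.7%) higher, beside 15.5% and 4.03% of all genes. With CV replicate 3 left out, 13 (24.1%) were nominally lower, beside 13% of all genes. The kinesin gene KIF5A, which carries cargo along axons, had 8.82, 6.39 and 5.48 FPKM in GF samples and 5.8, 6.04 and 6.09 FPKM in ZM samples, against 17.0, 9.38 and 22.8 FPKM in CV samples (log2 difference -1.16, SE 0.24). SPTAN1, an alpha spectrin, had 30.2, 26.7 and 25 FPKM in GF samples and 19.5, 30.4 and 47.5 FPKM in ZM samples, against 68.0, 46.5 and 101.2 FPKM in CV samples (log2 difference -1.22, SE 0.28). KIF5A did not overlap between sterilized and CV samples, whereas in SPTAN1 ZM replicate 3 exceeded CV replicate 2. Of 26 ubiquitin ligases of the HECT and cullin type, which tag proteins for the proteasome, 14 (53.8%, beside 20.2% of all genes) were nominally lower and 1 higher, with a median of -0.49. The median was -0.31 without CV replicate 3, and without CV replicate 2, 12 of the 26 (46.2%, beside 15.5% of all genes) fell and 0 rose. WWP1 differed by -1.02 (SE 0.23) and UBR2 by -0.87 (SE 0.19).

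Tubulins, DNA methylation enzymes and immediate early genes also held lower members, at shares that stand beside 20.2% of all genes. Of 16 tubulin genes 4 (25%) were nominally lower and 1 higher, and tubb2b, one of the most abundant lower genes, had 438.1, 457.3 and 365.0 FPKM in GF samples and 397.9, 428.1 and 529.2 FPKM in ZM samples, against 943.7 and 1095.5 FPKM in CV replicates 1 and 3 (log2 difference -0.84, SE 0.25). CV replicate 2 lay within the range of the sterilized samples. Of 12 genes of DNA methylation, 5 (41.7%) were nominally lower and 0 higher, including tet3, which oxidizes methylcytosine, at -1.22 (SE 0.31) and the methyltransferase gene DNMT3B at -0.54 (SE 0.13). Of 21 immediate early genes, which respond fast to neuronal activity and to handling, 6 (28.6%) were nominally lower and 0 higher, led by egr1 at -0.81 (SE 0.21). Without CV replicate 2, 5 tubulin, 4 DNA methylation and 5 immediate early genes fell and 0 rose. Leaving out CV replicate 3 gave 4, 3 and 2 nominally lower genes.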
